A study of Mus musculus with 6 samples.

Results

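Whole-library profiles of brain cells from wild-type mice given bilirubin were compared with those from wild-type mice given vehicle. The comparison rested on 4 of the 6 libraries of the series, 2 labelled WT with vehicle (WT vehicle 1 and 2) and 2 labelled WT with bilirubin (WT bilirubin 1 and 2). The other 2 libraries, labelled TRPM2 Mg KO with bilirubin, entered the statistical fit only to help estimate the spread between libraries. In each library the unique molecular identifiers (UMIs, 1 per captured RNA molecule) of all barcodes were summed into 1 profile, after removal of barcodes under 500 UMIs, under 300 genes or over 15% mitochondrially encoded UMIs. This kept 73736 of 74552 barcodes and 176507924 UMIs. The libraries were made from dissociated cells with a droplet kit that reads the 3' ends of transcripts. The title of the series names a liver under stress and negative emotions. The labels give no dose, route, duration, brain region, strain, age or sex. They also do not say whether the libraries of a group are from different animals, so the spread that p-values are measured against may be technical.

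Bilirubin is the yellow end product of haem breakdown. Haem oxygenase opens the haem ring to biliverdin, biliverdin reductase converts this to bilirubin, and the liver conjugates bilirubin for export into bile. When bilirubin is in excess it can enter the brain, where it is known to be toxic to neurons. In an acute inflammatory response, neutrophils loaded with calprotectin and granule proteins move through vessel walls, and liver, endothelium and glia make acute phase proteins such as lipocalin 2 and haptoglobin. A whole-library profile adds all cell types together, so fewer cells of a type and less RNA per cell cannot be told apart in it.

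The 4 libraries held 24586290 to 63400008 kept UMIs in 8593 to 24306 barcodes. The median barcode had 1153 to 1925 UMIs. Between 38 and 141 barcode sequences were shared by any pair of them, at most 0.733% of a library. Markers of neurons, astrocytes, microglia, oligodendrocytes, ependyma and choroid plexus were all counted in each library, so the label of brain cells held, with haemoglobin and neutrophil transcripts present as well. Levels below are UMIs per 1000000 UMIs kept in the library (CPM), and folds and tests come from edgeR's quasi-likelihood fit on the counts, with composition-adjusted library sizes and Benjamini-Hochberg adjustment over all genes tested. Replicates differed at as many genes as some pairs of libraries across the groups. Over 11973 genes with a mean of at least 5 CPM, WT vehicle 1 and 2 differed at least 2-fold at 8.48% of genes and WT bilirubin 1 and 2 at 6.36%. WT vehicle 2 differed at least 2-fold from WT bilirubin 1 at 5.77% and from WT bilirubin 2 at 5.96% of genes, fewer than separated it from its own replicate. WT vehicle 1 stood apart, with 21.6% and 16.9% of genes at least 2-fold from WT bilirubin 1 and 2.

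Among 19497 genes tested, 1 rose with bilirubin and none fell, so that 0.00513% of genes were called at an adjusted p of 0.05. The single call was Igha (ENSMUSG00000095079), the constant region of the immunoglobulin A heavy chain. At an unadjusted p under 0.05 edgeR counted 997 genes higher (5.11%) and 1073 lower (5.5%), 10.6% of those tested, while DESeq2 called 53 higher and 29 lower after adjustment. The number of calls depended on single libraries. It was 219 without WT vehicle 2, 4 without WT bilirubin 1, 2 without WT vehicle 1, 2 without WT bilirubin 2, and 0 without either TRPM2 Mg KO library. With 2 libraries a group, p cannot fall below 0.333 in an exact two-sided permutation test, so the genes below that did not pass are given by their values and by whether the libraries overlapped. By that measure 22.0% of all tested genes had both bilirubin libraries above both vehicle libraries and 17.2% had both below, 39.2% in all. The closest pair differed at least 2-fold for 118 genes above (0.605%) and 65 below (0.333%).

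Igha had 3 and 7 UMIs in WT vehicle 1 and 2, 1441 and 298 in WT bilirubin 1 and 2, and 16 and 9 in the TRPM2 Mg KO libraries. These were 0.109 and 0.110 CPM with vehicle against 23.6 and 12.1 CPM with bilirubin. The log2 fold change was 7.32 (SE 0.56, edgeR adjusted p = 0.00459), and both bilirubin libraries lay far above both vehicle libraries. The counts came from very few barcodes. In WT bilirubin 1 a single barcode of 16234 UMIs held 1397 of the 1441 Igha UMIs, or 96.9%, and in WT bilirubin 2 a single barcode held 208 of 298, or 69.8%. Barcodes with at least 1% of their UMIs from Igha numbered 1 in WT bilirubin 1, 2 in WT bilirubin 2 and 0 in either vehicle library, where 0 of 20003 and 0 of 24306 barcodes allow a share of up to 0.0150% and 0.0123%. With these 3 barcodes left out, a setting chosen after Igha was seen, the Igha log2 fold change was 2.76 (SE 0.59, edgeR adjusted p = 0.399) and no gene was called. The call was also lost in the fit of only the 4 wild-type libraries (edgeR adjusted p = 0.0796), without TRPM2 Mg KO replicate 1 (0.0535) or 2 (0.216), without the largest 5% of barcodes (0.443), and after thinning each barcode to 500 UMIs (0.0575).

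Other transcripts of antibody-secreting cells sat in the same few barcodes or differed in direction. Jchain, which encodes the chain that joins IgA and IgM units, stood at 0.438 and 0.142 CPM with vehicle and 9.44 and 4.39 CPM with bilirubin (log2 fold change 4.80, SE 0.65, edgeR adjusted p = 0.153). One barcode held 96.4% of its UMIs in WT bilirubin 1 and 79.6% in WT bilirubin 2. Igkc, the kappa light chain constant region, stood at 28.2 and 26.4 CPM with vehicle and 154 and 52.8 CPM with bilirubin, with 84.8% and 49.0% of its UMIs in 1 barcode. Without the 3 Igha-rich barcodes Igkc was at 23.4 and 24.7 CPM in the bilirubin libraries, below both vehicle libraries. Mzb1, a chaperone of antibody assembly, overlapped between groups. Tnfrsf17, the plasma cell survival receptor BCMA, was at 13.8 and 10.3 CPM with vehicle and 5.51 and 3.42 CPM with bilirubin. Reads of immunoglobulin genes can be shared between near-identical gene segments, and how the counting split them was not stated.

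**Figure D1:**
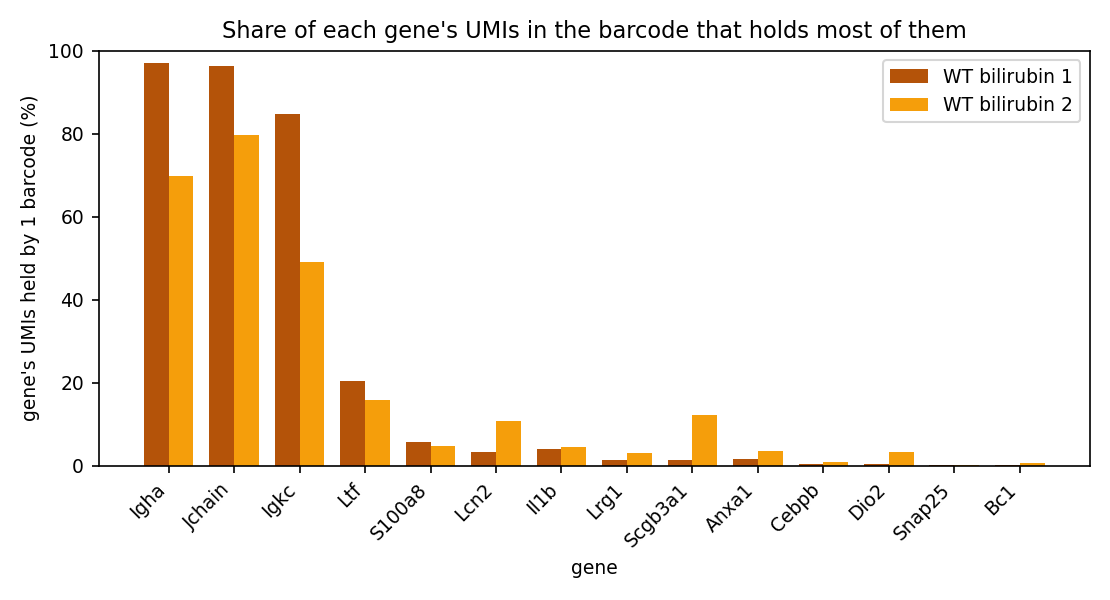
Percent of a gene's UMIs that sat in the barcode holding most of them (vertical axis, %), for 14 genes (horizontal axis) in WT bilirubin 1 (dark bars) and WT bilirubin 2 (light bars). In WT bilirubin 1 a single barcode held 96.9% of Igha, 96.4% of Jchain and 84.8% of Igkc UMIs, and in WT bilirubin 2 it held 69.8%, 79.6% and 49.0%, while Snap25 and Bc1 were spread over many.

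Beside Igha, the rule for naming genes took the 23 genes with the smallest p among those with a mean of at least 5 CPM and no overlap, leaving out haemoglobins, mitochondrial transcripts, ribosomal proteins and predicted genes. In 19 of them both bilirubin libraries were above both vehicle libraries and in 4 below. Each had an edgeR adjusted p of 0.398. Most are described below by what each is known to do. The others, Pawr, Rassf9, G0s2, Ppp1r36 and Ctxn3, all lay above. Their log2 fold changes were 1.55, 1.30, 1.29, 1.35 and 1.44, in this order. Barcodes with at least 1% of UMIs from S100a8 and S100a9 held 27.9% and 69.7% of G0s2 UMIs in WT bilirubin 1 and 2. Without those barcodes G0s2 overlapped between groups, at 13.7 and 9.12 CPM with vehicle and 22.0 and 11.98 CPM with bilirubin.

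**Figure D2:**
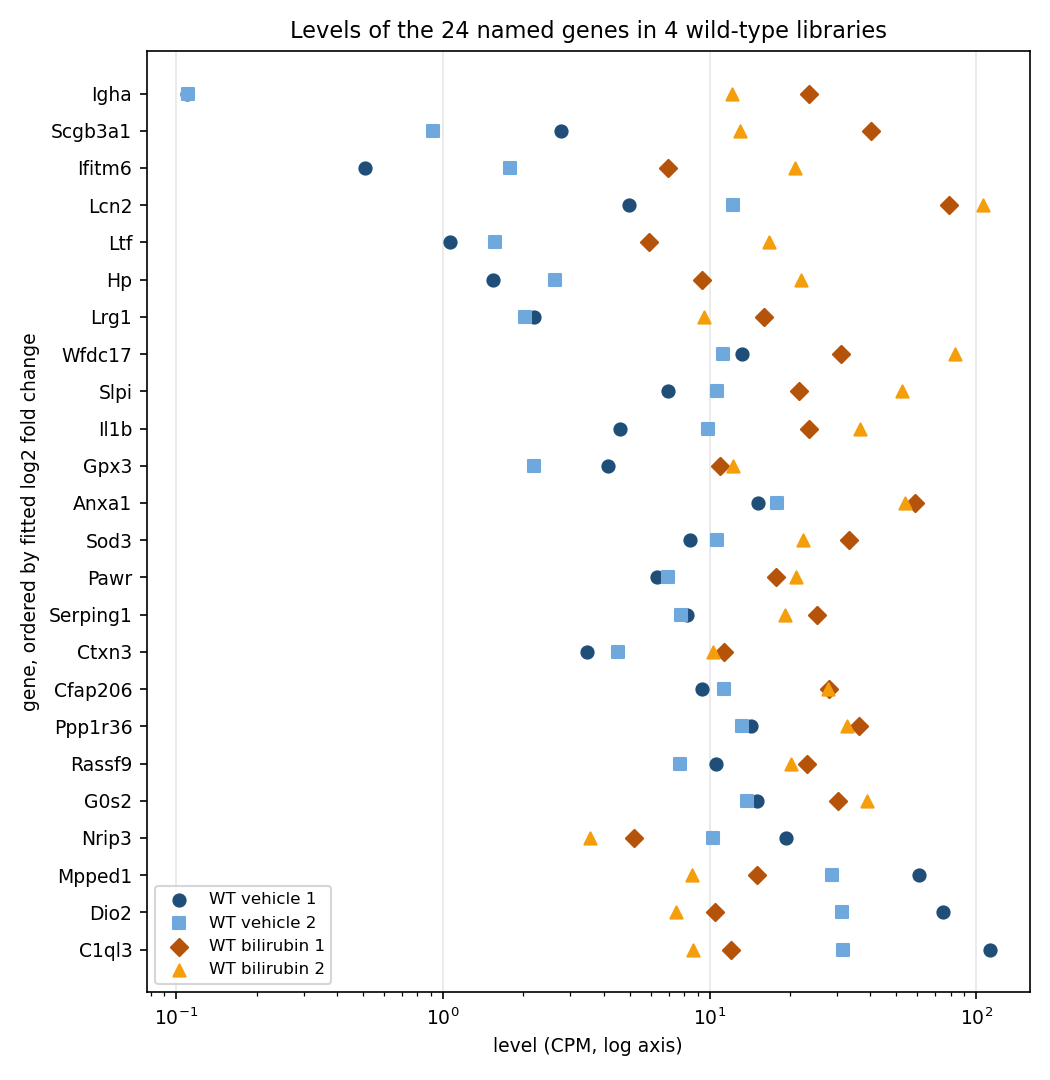
Level of the 24 named genes (vertical axis, ordered by log2 fold change) in each of the 4 wild-type libraries (horizontal axis, CPM, log scale; 1 point per library, no error bars). The bilirubin libraries lay right of both vehicle libraries for 20 genes from Igha down to G0s2 and left of them for Nrip3, Mpped1, Dio2 and C1ql3.

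Several of these genes encode secreted proteins. Lcn2 encodes lipocalin 2, which withholds iron from bacteria by binding their siderophores. Lcn2 was at 4.96 and 12.2 CPM in the vehicle libraries and at 79.1 and 105 CPM in the bilirubin libraries (log2 fold change 3.37, SE 0.68). Both bilirubin libraries were high, but the barcodes that held it differed. In WT bilirubin 1 Lcn2 was counted in 2431 of 20834 barcodes and 33.4% of its UMIs lay in barcodes rich in S100a8 and S100a9 (at least 1% of UMIs from these genes). In WT bilirubin 2 it was counted in 220 of 8593 barcodes and 91.9% lay in such barcodes. Without those barcodes Lcn2 stood at 3.14 and 2.38 CPM with vehicle and 52.9 and 8.68 CPM with bilirubin.

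Scgb3a1 encodes a secretoglobin, a small secreted protein known from airway epithelium. It stood at 2.77 and 0.915 CPM with vehicle and 40.4 and 12.97 CPM with bilirubin (log2 fold change 4.03, SE 0.82). It lay outside the S100a8-rich barcodes, which held 0.243% of its UMIs in WT bilirubin 1 and 0% in WT bilirubin 2. Scgb3a1 was counted in 1476 barcodes of WT bilirubin 1 and in 107 of WT bilirubin 2. A single barcode held 1.38% and 12.2% of its UMIs in these libraries. Lrg1 encodes a leucine-rich glycoprotein of the acute phase made by liver and activated endothelium, and was at 2.19 and 2.02 CPM with vehicle and 15.99 and 9.48 CPM with bilirubin (log2 fold change 2.65, SE 0.56). In WT bilirubin 2, 60.5% of Lrg1 UMIs lay in S100a8-rich barcodes, against 12.9% in WT bilirubin 1. Without those barcodes Lrg1 stood at 2.16 and 1.49 CPM with vehicle and 14.0 and 3.80 CPM with bilirubin. Serping1, the inhibitor of the C1 complement protease, was at 8.21 and 7.82 CPM with vehicle and 25.3 and 19.2 CPM with bilirubin. Hp encodes haptoglobin, the plasma protein that binds free haemoglobin. It stood at 1.53 and 2.63 CPM with vehicle and 9.36 and 21.96 CPM with bilirubin (log2 fold change 2.84, SE 0.47), and 58.2% and 84.3% of its UMIs in the bilirubin libraries lay in S100a8-rich barcodes. The extracellular antioxidant enzymes Gpx3 and Sod3 had both bilirubin libraries above both vehicle libraries, with log2 fold changes of 1.94 and 1.57.

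The wider list of endothelial activation and acute phase genes was mixed. Of its members, 18 passed the filter on low counts. Of these, 9 lay above and none below without overlap, beside 22.0% of all genes above and 17.2% below. The median log2 fold change of the list was 0.85 against 0.05 over all genes tested. Vcam1, a leukocyte adhesion molecule of activated vessels, was at 24.3 and 62.97 CPM with vehicle and 88.7 and 92.3 CPM with bilirubin. Icam1, Sele, Ackr1 and Vwf overlapped between groups. Among the 4 libraries, endothelial markers were high in WT bilirubin 1. Their summed level was 770 and 472 CPM with vehicle, 1505 in WT bilirubin 1 and 431 in WT bilirubin 2, and all 11 overlapped. Their part in the values of WT bilirubin 1 was not tested.

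Neutrophil transcripts were higher in both bilirubin libraries. Of 11 neutrophil markers, 10 lay above without overlap, beside 22.0% of all genes tested. Csf3r, the receptor for granulocyte colony-stimulating factor, overlapped. The median log2 fold change of the list was 2.82. S100a8 and S100a9 encode the subunits of calprotectin, the main cytosolic protein of neutrophils. S100a8 was at 35.9 and 93.9 CPM with vehicle and 233 and 1189 CPM with bilirubin (log2 fold change 3.36), and S100a9 was at 146 and 312 CPM against 666 and 2553 CPM (log2 fold change 2.74). WT bilirubin 2 was the higher of the bilirubin libraries in both genes, by a wider margin than separated WT bilirubin 1 from WT vehicle 2. Ltf, Retnlg and Camp had the same order of libraries. Ltf, lactoferrin of the secondary granules, was at 1.06 and 1.56 CPM with vehicle and 5.92 and 16.7 CPM with bilirubin. Retnlg, a resistin-like neutrophil protein, was at 28.9 and 54.8 CPM against 111 and 479 CPM. Camp, the cathelicidin antimicrobial peptide, was at 19.3 and 47.9 CPM against 83.9 and 325 CPM. Not all granule genes had this order. Pglyrp1, Prtn3 and Ctsg overlapped between groups. Elane, neutrophil elastase, lay above without overlap at 0.110 and 0.158 CPM with vehicle and 0.605 and 0.203 CPM with bilirubin, with WT bilirubin 1 the higher. These levels were only 3 and 10 UMIs with vehicle and 37 and 5 UMIs with bilirubin, so their order rests on few counts. Mpo was at or near 0 in every library and did not enter the fit.

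Barcodes rich in S100a8 and S100a9 numbered 15 of 20003 and 146 of 24306 in the vehicle libraries and 60 of 20834 and 79 of 8593 in the bilirubin libraries. These are shares of 0.0750% and 0.601% against 0.288% and 0.919%, which overlap between groups. Close to the 1% cut on either side, between 0.5% and 2%, lay 5 and 100 vehicle barcodes and 7 and 15 bilirubin barcodes, some of them among the rich ones. The exclusion of these barcodes left S100a8 at 10.4 and 12.4 CPM with vehicle and at 50.7 and 55.3 CPM with bilirubin, and S100a9 at 40.6 and 37.6 CPM against 129 and 104 CPM. The barcodes were left out by their share of these same genes, so these levels are only a description. Whether S100a8 and S100a9 in them are free RNA from lysed cells or transcripts of the barcodes' own cells was not tested.

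Other genes known from inflammation or from myeloid cells were among those named. Il1b, the inflammatory cytokine interleukin-1 beta, was at 4.60 and 9.81 CPM with vehicle and 23.5 and 36.6 CPM with bilirubin (log2 fold change 2.00, SE 0.44). Without S100a8-rich barcodes Il1b stood at 3.22 and 6.54 CPM against 14.6 and 14.3 CPM. The interleukin-1 family was mixed, with 5 of 14 members above, 1 below and 8 overlapping, beside 22.0% of all genes above and 17.2% below, and a median log2 fold change of 0.23. Anxa1, annexin A1, which limits neutrophil recruitment, was at 15.2 and 17.9 CPM with vehicle and 58.9 and 53.9 CPM with bilirubin (log2 fold change 1.78, SE 0.32). Its replicates were close in both groups and its UMIs lay in 2301 of 20834 and 541 of 8593 barcodes of the bilirubin libraries. S100a8-rich barcodes held 12.6% and 35.0% of these UMIs. Without those barcodes Anxa1 was at 15.1 and 16.4 CPM with vehicle and 51.8 and 35.6 CPM with bilirubin. Ifitm6, Wfdc17 and Slpi, which are expressed in myeloid cells, had log2 fold changes of 3.45, 2.23 and 2.03. S100a8-rich barcodes held 73.1% and 90.9% of Ifitm6, 48.4% and 78.6% of Wfdc17, and 80.4% and 93.9% of Slpi UMIs in the bilirubin libraries. Without those barcodes Wfdc17 was at 10.3 and 8.42 CPM with vehicle and 16.1 and 18.1 CPM with bilirubin, against 13.2 and 11.2 and 31.1 and 83.3 CPM with them. Cebpb, a transcription factor of myeloid and acute phase genes, was at 49.4 and 37.8 CPM with vehicle and 94.7 and 78.6 CPM with bilirubin (log2 fold change 1.05). Of 16 chemokines in the fit, 4 lay above and 4 below, beside the same shares of all genes. Ccl7, which attracts monocytes, was at 0.292 and 1.03 CPM with vehicle and 4.25 and 3.34 CPM with bilirubin. Its 260 and 82 UMIs in WT bilirubin 1 and 2 lay in only 103 and 18 barcodes. Ccl4 was at 1156 and 496 CPM with vehicle and 443 and 391 CPM with bilirubin.

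Because the C/EBP family is known to drive acute phase and granule genes, the promoters of the named genes were searched for its core letters, TTGCNNAA, on both strands of the 250 bases before the RefSeq transcript start (mouse build GRCm38.p6). The search was planned for called genes and was carried over to those named by smallest p. Of the 20 genes above, 14 matched the RefSeq promoter table, and 4 of these, Anxa1, Lcn2, Ltf and Slpi, held a match. Of the 4 genes below, 3 matched the table and Dio2 held a match. Of all 27025 genes listed there, 10.8% held one. The STAT letters TTCNNNGAA were found in Ifitm6 and Scgb3a1, against 8.13% of all genes, and an NF-kB motif in none of the 14, against 1.65%. A match is a description of letters and not a binding site. The promoters of Lcn2 (chr2:32387740-32387989, minus strand), Ltf (chr9:111019042-111019291, plus strand) and Anxa1 (chr19:20390672-20390921, minus strand) are shown as 3 of the 4 genes above with a match, those with the smallest p, and Dio2 (chr12:90739039-90739288, minus strand) as the gene below with one. Each runs 5' to 3' and ends at the base before the transcript start, with the C/EBP letters in capitals.
Lcn2: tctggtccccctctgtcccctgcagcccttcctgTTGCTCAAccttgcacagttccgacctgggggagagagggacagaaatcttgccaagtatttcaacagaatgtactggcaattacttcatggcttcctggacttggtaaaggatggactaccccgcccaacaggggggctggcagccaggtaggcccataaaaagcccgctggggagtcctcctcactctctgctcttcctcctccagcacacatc
Ltf: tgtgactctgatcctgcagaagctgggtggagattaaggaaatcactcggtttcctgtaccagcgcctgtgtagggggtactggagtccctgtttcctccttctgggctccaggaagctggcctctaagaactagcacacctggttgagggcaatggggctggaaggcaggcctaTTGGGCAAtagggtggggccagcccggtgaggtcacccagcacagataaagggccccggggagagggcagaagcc
Anxa1: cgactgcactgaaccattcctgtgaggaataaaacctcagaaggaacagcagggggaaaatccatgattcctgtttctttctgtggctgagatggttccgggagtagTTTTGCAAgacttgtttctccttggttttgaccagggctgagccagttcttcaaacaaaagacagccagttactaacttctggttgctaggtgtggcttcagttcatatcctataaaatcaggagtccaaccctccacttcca
Dio2: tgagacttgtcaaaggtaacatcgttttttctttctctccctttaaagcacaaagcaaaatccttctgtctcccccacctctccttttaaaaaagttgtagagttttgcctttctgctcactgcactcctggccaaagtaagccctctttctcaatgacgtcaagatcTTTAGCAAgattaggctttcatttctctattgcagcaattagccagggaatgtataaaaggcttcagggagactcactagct
The match began 216 bases before the start in Lcn2, 75 in Ltf, 143 in Anxa1 and 82 in Dio2, so its position differed from gene to gene.

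Neuronal transcripts were lower in both bilirubin libraries. Of 11 general neuron markers 9 lay below without overlap and none above, beside 17.2% of all genes below and 22.0% above. The median log2 fold change of these markers was -1.18. Snap25, a membrane fusion protein of synaptic vesicles, was at 330 and 178 CPM with vehicle and 93.3 and 80.8 CPM with bilirubin (log2 fold change -1.47). All 10 inhibitory neuron markers lay below, as did 8 of 9 excitatory ones, with medians of -1.35 and -1.59. C1ql3, a secreted synaptic organiser of excitatory neurons, was at 112 and 31.6 CPM with vehicle and 11.98 and 8.62 CPM with bilirubin (log2 fold change -2.67, SE 0.49). Mpped1 and Nrip3, both known from forebrain neurons, both lay below with log2 fold changes of -1.81 and -1.66. Meg3 and Snhg11, long noncoding RNAs kept in neuronal nuclei, overlapped between groups at 565 and 473 against 282 and 551 CPM and at 240 and 188 against 102 and 199 CPM.

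RNAs known from dendrites and synapses had 22 of 23 members below, beside 17.2% of all genes below and 22.0% above. Their median log2 fold change was -1.16. Bc1, a small noncoding RNA transported into dendrites, was at 18040 and 3795 CPM with vehicle and 1240 and 1118 CPM with bilirubin (log2 fold change -3.08, edgeR adjusted p = 0.398). The WT vehicle libraries differed from each other more than WT vehicle 2 did from either bilirubin library. WT vehicle 1 was the highest library for Bc1, Snap25, C1ql3 and Dio2, and its summed neuron level was 2422 CPM, against 1542 in WT vehicle 2 and 936 and 1204 in the bilirubin libraries. Markers of striatal medium spiny neurons were 6 of 9 below, with a median log2 fold change of -1.03, but their summed level did not share this direction, at 315 and 411 CPM with vehicle and 550 and 422 CPM with bilirubin. The difference came from Ppp1r1b, a phosphatase inhibitor, at 74.5 and 236 CPM with vehicle and 449 and 315 CPM with bilirubin. Receptors and enzymes of serotonin, dopamine and GABA signalling were 12 below and 1 above of 19. Drd1, a dopamine receptor, was at 8.72 and 4.15 CPM with vehicle and 1.98 and 1.55 CPM with bilirubin, and Gad1, which makes GABA, was at 41.5 and 28.3 against 15.3 and 9.48 CPM. Htr2c, a serotonin receptor abundant in choroid plexus, overlapped at 22.2 and 69.3 against 68.4 and 166 CPM.

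Dio2, the deiodinase that activates thyroid hormone in astrocytes, was at 74.8 and 31.4 CPM with vehicle and 10.5 and 7.44 CPM with bilirubin (log2 fold change -2.46, SE 0.39). The astrocyte marker list did not match it in size, with 4 of 10 members below and 1 above. Its median log2 fold change was -0.65. Over all genes tested, 17.2% lay below and 22.0% above without overlap. Microglial markers were mixed, with 3 of 10 below and 7 overlapping. Cx3cr1, the fractalkine receptor of microglia, was at 297 and 220 CPM with vehicle and 84.7 and 140 CPM with bilirubin, while P2ry12 and Tmem119 overlapped. Of 8 genes of MHC class II presentation 5 lay above and none below. Cd74, the invariant chain, was at 62.7 and 74.2 CPM with vehicle and 139 and 158 CPM with bilirubin.

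**Figure D3:**
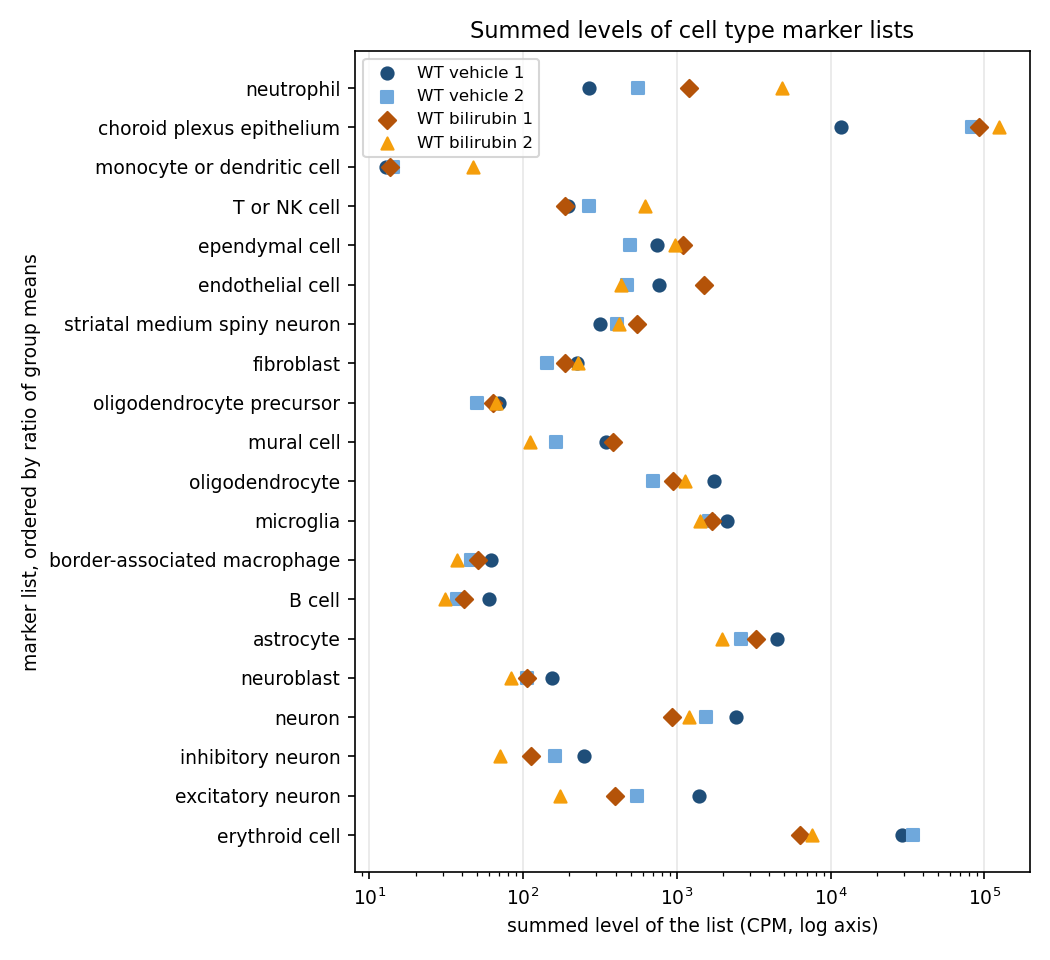
Summed level of 20 cell type marker lists (vertical axis, ordered by the ratio of group means) in each of the 4 wild-type libraries (horizontal axis, CPM, log scale; 1 point per library, no error bars). Neutrophil markers lay right of both vehicle libraries in both bilirubin libraries, erythroid and neuron markers lay left, and choroid plexus markers were lowest in WT vehicle 1.

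Blood and ventricle-lining transcripts differed between libraries by large amounts. Beside the list counts given here, 22.0% of all genes lay above and 17.2% below without overlap. All 7 erythroid markers lay below, with a summed level of 29270 and 34620 CPM with vehicle and 6326 and 7571 CPM with bilirubin. The TRPM2 Mg KO libraries, also given bilirubin, stood at 31860 and 937 CPM, so their replicates differed more than the wild-type groups did. Haemoglobin made up at least 1% of UMIs in 28.2% and 72.4% of vehicle barcodes and 5.72% and 1.78% of bilirubin barcodes. Choroid plexus markers summed to 11660 CPM in WT vehicle 1, 83350 in WT vehicle 2, and 92610 and 124800 in the bilirubin libraries, and 6 of 10 lay above. Ttr, transthyretin, the main secreted protein of the choroid plexus, alone was at 11370, 81540, 90670 and 122200 CPM in this order. WT vehicle 2 and WT bilirubin 1 were close for this list, and WT vehicle 1 was the library that stood apart. Of 10 ependymal markers 7 lay above, among them Foxj1, the regulator of motile cilia, at 18.1 and 19.0 CPM with vehicle and 39.5 and 34.8 CPM with bilirubin. Cfap206, a protein of motile cilia, was at 9.34 and 11.3 against 27.9 and 27.7 CPM. The part of these cell mixtures in the values of other genes was not tested.

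Genes of haem and bilirubin handling showed no common direction. Of 28 listed genes 21 entered the fit, with a median log2 fold change of 0.27. Of these 21, 4 lay above, 2 below and 15 overlapped, beside 22.0% of all genes above and 17.2% below. Hmox1, the inducible haem oxygenase, was at 20.2 and 50.5 CPM with vehicle and 45.2 and 22.7 CPM with bilirubin (log2 fold change -0.07). The biliverdin reductases Blvra and Blvrb also overlapped, with log2 fold changes of 0.36 and -0.01. Ugt1a1, which conjugates bilirubin in the liver, had no UMI in any library. Gsta4, a glutathione transferase, was at 92.6 and 226 CPM with vehicle and 391 and 315 CPM with bilirubin.

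Among the 4 wild-type libraries, mitochondrially encoded transcripts set WT bilirubin 1 apart. They summed to 10720 and 9227 CPM with vehicle, 47620 in WT bilirubin 1 and 7788 in WT bilirubin 2, and 12 of 13 overlapped. The TRPM2 Mg KO libraries, also given bilirubin, were high as well, at 37150 and 39820 CPM. Glycolysis and hypoxia genes had 9 of 17 members above, beside 22.0% of all genes above and 17.2% below. Adm, the vasodilator peptide adrenomedullin, was at 2.99 and 2.08 CPM with vehicle and 11.6 and 4.84 CPM with bilirubin. T and NK cell markers were 5 of 10 above, with the excess in WT bilirubin 2. Cd3e, a T cell receptor subunit, was at 2.88 and 3.16 CPM with vehicle, 4.25 in WT bilirubin 1 and 16.7 in WT bilirubin 2. Glucocorticoid targets were balanced, with 1 above, 1 below and 16 overlapping of 18, and myelin genes had 2 above and 11 overlapping of 13.

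The departures of both bilirubin libraries from the mean of the vehicle libraries were compared over the 11973 genes. WT bilirubin 1 was at least 2-fold above that mean at 689 genes and WT bilirubin 2 at 560, with 243 genes in common, 35.3% of the first list and 43.4% of the second. At least 2-fold below were 642 and 633 genes, with 175 in common, 27.3% and 27.6% of the lists. Opposite departures of that size occurred at 16 genes, all with WT bilirubin 1 above. Both departures share the same vehicle libraries, so their likeness is no separate support.

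**Figure D4:**
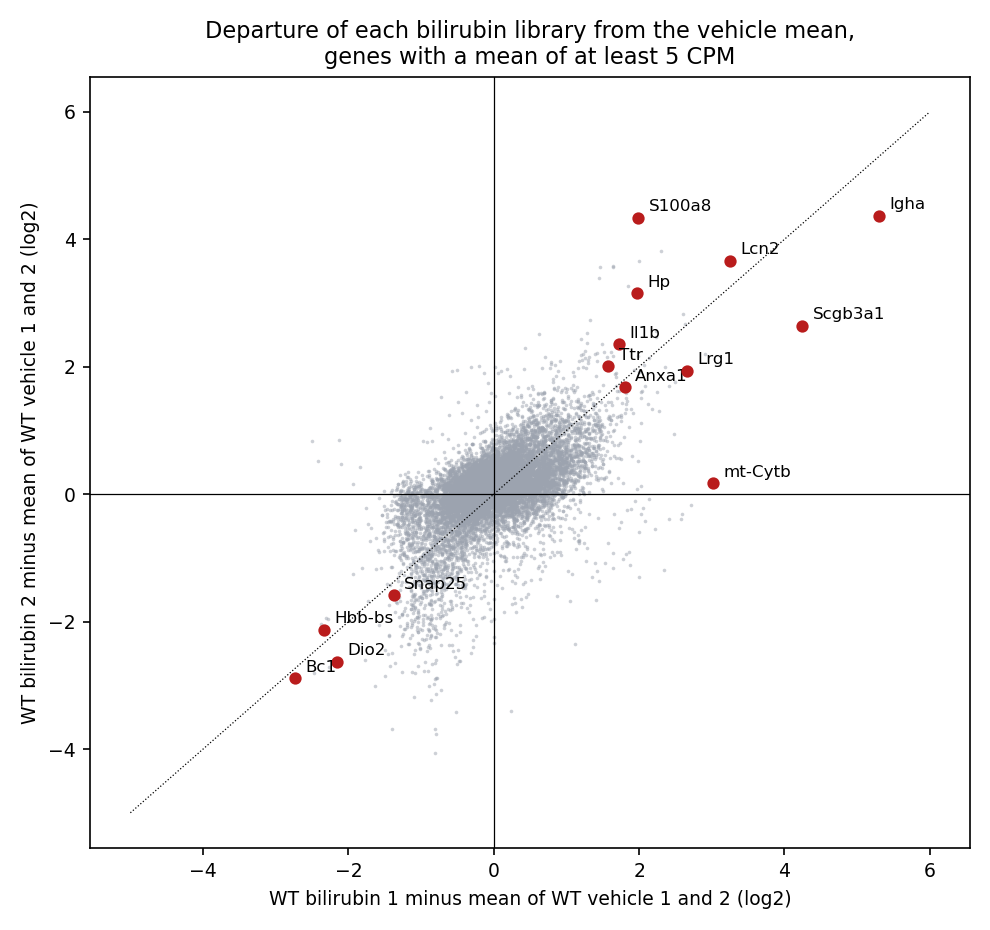
Departure of WT bilirubin 1 (horizontal axis) and WT bilirubin 2 (vertical axis) from the mean of the vehicle libraries, in log2 units of CPM plus 0.5, 1 point per gene with a mean of at least 5 CPM. Igha, Lcn2 and Scgb3a1 lay high and Bc1, Dio2 and Hbb-bs low in both libraries, while mt-Cytb was high in WT bilirubin 1 and near 0 in WT bilirubin 2.

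A stricter description asked that the closest pair of a vehicle and a bilirubin library differ at least 4-fold. This held for 8 genes above, 0.0410% of those tested, and 3 below, 0.0154%. These genes were singled out after their values were seen. Beside Igha, Jchain, Lcn2, Scgb3a1 and Lrg1, the genes above were Il17a, Asprv1 and Mcpt4. Il17a encodes the cytokine interleukin-17A, which raises neutrophil-attracting signals and lipocalin 2 in epithelia. Il17a was counted with 6 and 9 UMIs in the vehicle libraries and 93 and 114 in the bilirubin libraries, or 0.219 and 0.142 CPM against 1.52 and 4.64 CPM. Mcpt4, a protease of connective tissue mast cells, had 1 and 2 UMIs with vehicle and 30 and 15 with bilirubin. Asprv1, a protease seen in skin and neutrophils, had 4 and 24 UMIs with vehicle and 129 and 92 with bilirubin.

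Below by this measure were Gm17167, H4c17 and Hbb-bs. Gm17167, a predicted gene, had 349 and 406 UMIs in the vehicle libraries and 1 and 3 in the bilirubin libraries (log2 fold change -7.40, edgeR adjusted p = 0.153). H4c17, a histone H4 gene, had 116 and 74 UMIs with vehicle and 0 in either bilirubin library, at least 59.8-fold lower with a floor of 3 counts over the group. The TRPM2 Mg KO libraries had 59 and 29 UMIs of H4c17 and 190 and 19 of Gm17167. Histone H4 genes are near-identical copies, so how reads were assigned among them leaves the H4c17 count uncertain. Hbb-bs, an adult beta-globin, was at 18800 and 21210 CPM with vehicle and 3958 and 4572 CPM with bilirubin.

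Sex-linked transcripts were alike in the 4 libraries. Xist, made only from the inactive X chromosome, was at or near 0 in every library, and the Y-linked Ddx3y was at 45.9 and 54.1 CPM with vehicle and 47.5 and 69.1 CPM with bilirubin.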

How the data were processed

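Raw UMI counts per gene and barcode were deposited by the authors for each library, beside deposited tables of barcodes and genes that hold other content than measurements. Cell Ranger 8.0.0 and Scanpy 1.9.6 are named in the submitters' processing notes, with the builds GRCm39 and mm10 and no role for either, while the matrix headers name Cell Ranger 9.0.1. The build, the strand setting and how barcodes were called are not given in the sources used here, so no gene coordinates come from the files.

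All 33696 genes were summed over kept barcodes. Doublets were not removed, since every kept barcode entered the sum. The sums of all 6 libraries were fitted with edgeR 4.0.16 in R 4.3.3 (TMM, filterByExpr, quasi-likelihood F test, two-sided, group as the only term, 3 residual degrees of freedom, Benjamini-Hochberg threshold 0.05). Printed CPM are counts scaled by the kept UMIs of the library, without TMM factors. Standard errors were derived from F. Intervals and limits cover counting error only. Differences between libraries used log2 of CPM plus 0.5, and closest pairs used CPM plus 0.1. On simulated data with a dispersion (spread between libraries) of 0.05, the fit found 24% of 2-fold and 94.9% of 4-fold changes. At a dispersion of 0.20 it found 0% and 2.04%. The common dispersion of the data was 0.102, so a gene without a call may still differ.

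The comparison, the 25 gene lists and 20 marker lists, and the rule for named genes were chosen with earlier results of these data known, so no p is given for a list. Named were called genes and then those of smallest p up to 24 (mean of at least 5 CPM, no overlap), the 2 members of smallest p in each list, and 13 preset genes. The alternatives were other scaling (RLE, library totals), no low-count filter, DESeq2 1.42.0, fewer libraries, a replicate block, other barcode filters, thinning, and leaving out barcodes or genes. Promoter sequences are from RefSeq (GRCm38.p6).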

Additional observations from a re-analysis of the deposited data

How the results depend on the processing

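The main fit called 1 gene higher and 0 lower. Scaling by library totals alone gave 40 higher and 23 lower, no low-count filter 344 and 241 of 29681 genes, and DESeq2 53 and 29, of which 55 were also called with library totals. The 4 wild-type libraries alone gave 0 higher, as did leaving out the largest barcodes, thinned barcodes and leaving out Igha-rich barcodes, the last chosen after seeing the data. Leaving out 1 library at a time gave 0 to 188 higher and 0 to 31 lower, with the highest counts without WT vehicle replicate 2. RLE factors, all deposited barcodes, the stricter barcode filter, and leaving out S100a8-rich barcodes, haemoglobin-rich barcodes or mitochondrial, ribosomal and haemoglobin genes kept the counts at 1 and 0. The cause of these differences was not tested.

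With the replicate number as a block, 9 genes were called higher and 2 lower. The labels do not say whether a shared number marks a pair. Deviations from group means of same-numbered libraries correlated at 0.0473 between WT vehicle and WT bilirubin. With the TRPM2 Mg KO libraries, those of WT vehicle correlated at -0.117 and those of WT bilirubin at -0.181. With 2 libraries a group and no reference value, these correlations cannot show whether same-numbered libraries belong together. The block therefore stands for a shared number only.

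Of 105 named genes in the fit, 95 kept the sign of their log2 fold change in all 20 alternatives, and 53 passed the threshold in at least 1. Hmox1, Blvra and Blvrb were among those that changed sign. Most named genes were chosen by smallest p in these same data, and the alternatives reuse the same libraries. Neither count is therefore separate support, and the matching shares over all genes tested were not computed. The ratio of group means of 17 of 20 marker lists kept its direction in all 6 barcode settings, and that of the neutrophil list went from a log2 of 2.86 to 1.41 without S100a8-rich barcodes. Haemoglobin-rich barcodes held up to 50.5% of a vehicle library's UMIs, and the counts of calls were the same without them.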

Other observations

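The remaining lists held no called gene and are given as counts of members in the fit whose libraries did not overlap. Over all genes tested 22.0% lay above and 17.2% below in this way, and with lists of this size nothing particular to a list is read from its count. Interferon response genes had 6 of 18 above and 1 below, complement genes 5 of 13 above and 1 below, NRF2 antioxidant genes 5 of 16 above and 1 below, and TNF and NF-kB feedback genes 5 of 15 above and none below. For the IL-6 family and STAT3 list 6 of 15 lay above and 2 below. C/EBP factors had 3 of 7 above and 1 below. Immediate-early and dissociation-related genes had 6 of 19 above and 3 below, unfolded protein and heat shock genes 4 of 16 above and 2 below, and prostaglandin genes 6 of 14 above and 3 below. Cholesterol genes had 2 of 16 above and 3 below. Genes of calcium stores and TRP channels had 4 of 21 above and 9 below.

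Socs3, a feedback inhibitor of cytokine signalling, was at 29.1 and 15.4 CPM with vehicle and 43.9 and 34.3 CPM with bilirubin. Mural cell markers all overlapped, and fibroblast markers had 3 of 10 above, near the share of all genes. B cell markers had 1 of 6 below and none above, beside the Igha counts of the bilirubin libraries. Markers of monocytes or dendritic cells had 3 of 7 above and none below, at a summed 12.8 and 14.2 CPM with vehicle, 13.6 in WT bilirubin 1 and 46.98 in WT bilirubin 2. Oligodendrocyte precursor markers had 2 of 8 above and 3 below, neuroblast markers 1 of 9 above and 3 below, oligodendrocyte markers 1 of 10 above and none below, and border-associated macrophage markers 3 of 9 above and 1 below. Genes of thyroid hormone activation and response had 2 of 10 above and 4 below.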
